A study of Homo sapiens with 6 samples.

Results

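The genes described are 9 transcription factor genes of liver identity, out of 19987 protein-coding genes scored in the same way: FOXA1, FOXA2, FOXA3, HNF4A, CEBPA, HLF, NR1H4, NR0B2 and NR5A2. They were taken by name. A gene was scored in a library when a peak lay over its RefSeq span on GRCh38 or within 1000 bp of it. The libraries came from chromatin immunoprecipitation and sequencing (ChIP-seq) in a clone of HepG2, an established human liver cancer line, that carries V5-tagged TAF2 and is a single clone. TAF2 is a subunit of TFIID, the complex that recognises core promoters ahead of RNA polymerase II. The labels gave 3 libraries precipitated with an antibody to the V5 tag and 3 control libraries of the same clone, named both input and IgG, so that every sample carried the tagged protein. The control libraries were not analysed here, and how the tag was introduced is not given in the sources used here. The 3 V5 lists held 1599, 2557 and 1887 peaks in replicates 1, 2 and 3. Depth is unknown, and nothing says whether the libraries came from separate cultures. With 3 libraries of a single group there was no contrast to test, so all values below are descriptions.

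Hepatocyte identity rests on a small network of factors that bind each other's genes. The FOXA proteins are forkhead factors able to open closed chromatin, HNF4A is a nuclear receptor that controls much of the hepatocyte programme, and CEBPA is a leucine zipper factor of metabolic genes. HLF belongs to the proline and acidic rich leucine zipper family, with DBP and TEF, and drives rhythmic and detoxification genes. NR1H4, the bile acid receptor FXR, induces NR0B2, known as SHP, a receptor without a DNA-binding domain that restrains NR5A2, known as LRH-1, an activator of bile acid synthesis. ChIP-seq peaks measure no RNA. Of 7 liver marker genes, AFP, APOA1, APOB and SERPINA1 had peaks in at least 2 libraries, against 3.76% of all protein-coding genes. APOA1 and SERPINA1 had none in replicate 1, and ALB, FGB and TTR had none in any library.

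Of the 9 genes, 5 carried V5 peaks in more than 1 library. HLF, HNF4A, FOXA3 and NR0B2 had peaks in 3 libraries, FOXA1 had them in replicates 2 and 3, and NR1H4 had a peak in replicate 2 alone. FOXA2, CEBPA and NR5A2 had none. Thus 5 of 9 had a peak in at least 2 libraries, against 3.76% of all protein-coding genes, and 4 of 9 had one in 3 libraries, against 1.90%. In 4 of 9, peaks of at least 2 libraries overlapped each other, against 3.27% of all protein-coding genes. By library, 4, 6 and 5 of the 9 had a peak in replicates 1, 2 and 3, where the shares of all protein-coding genes were 3.70, 5.75 and 4.87%. Since the genes were chosen with results of these data known, the comparison is a description.

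**Figure D1:**
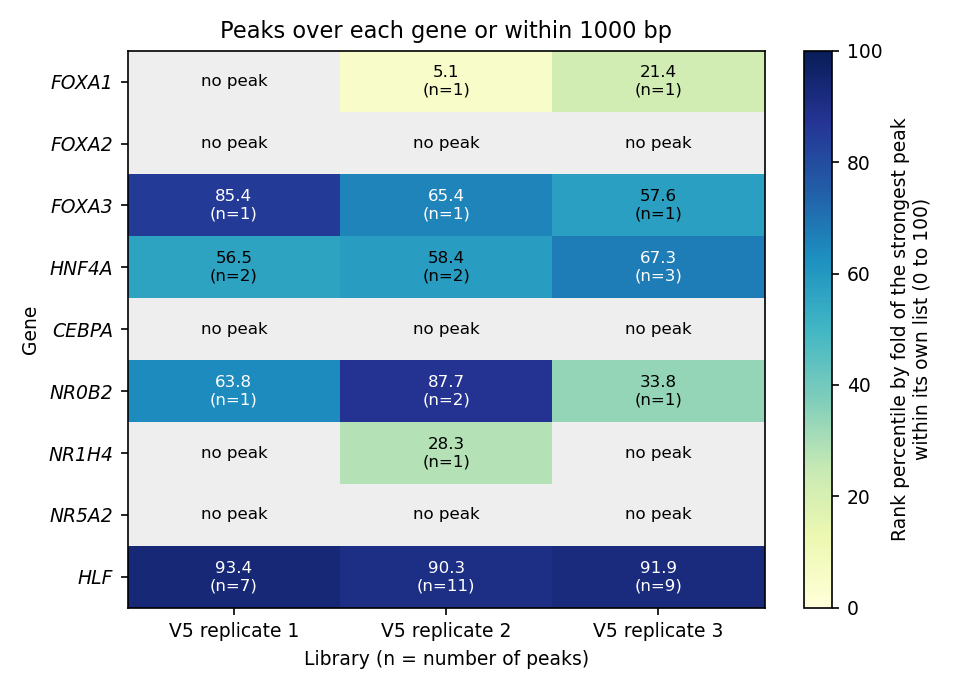
Rank percentile by fold of the strongest peak over each of the 9 genes or within 1000 bp (colour and number), with the number of peaks (n), in the 3 V5 libraries (columns). HLF lay between 90.3 and 93.4 in every library, while FOXA2, CEBPA and NR5A2 had no peak in any.

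The peaks were unevenly shared among the genes. Of 44 peaks in all, 27 were at HLF, 7 at HNF4A, 4 at NR0B2, 3 at FOXA3, 2 at FOXA1 and 1 at NR1H4. Merged wherever peaks overlapped, they made 20 regions, and 7 of these were seen in every library, 4 in a pair of libraries and 9 in just 1. Thus 11 of 20 were seen in at least 2 libraries, against 36.7% of the 3783 regions of all lists. Without HLF, 4 of 9 regions were, so most of the shared regions were those of HLF. Per 100 kb of gene and flank, the 9 genes held 2.61, 4.26 and 3.55 peaks in replicates 1, 2 and 3, against 0.0834, 0.130 and 0.102 over all protein-coding genes. Without HLF the other 8 held 1.11, 1.94 and 1.67 per 100 kb, so that HLF made up much of the density but not all of it. Peak strength is given below as the authors' fold over background and as its rank percentile within the same list, where 100 marks the strongest peak. The median percentile of peaks at the 9 genes was 63.8, 55.9 and 67.3 in replicates 1, 2 and 3. Without HLF it was 60.1, 28.3 and 57.7, the lowest value being that of replicate 2.

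Gene length and chromosome moved with the share of genes called. Among protein-coding genes shorter than 5000 bp, 1.51% had a peak in at least 2 libraries, and of the 3 genes of that length here NR0B2 did and FOXA2 and CEBPA did not. The share was 2.64% between 5000 and 20000 bp, where FOXA1 and FOXA3 lie, and 3.85% between 20000 and 100000 bp, where HLF, HNF4A and NR1H4 lie. It was 7.61% among longer genes, and NR5A2, the longest of the 9 at 149706 bp, had no peak. By chromosome the share was 7.08% on chromosome 20, which holds both HNF4A and FOXA2, and 1.52% on chromosome 19, which holds both FOXA3 and CEBPA. It was 4.62% on chromosome 17 (HLF), 4.46% on chromosome 14 (FOXA1), 4.30% on chromosome 12 (NR1H4) and 3.59% on chromosome 1 (NR0B2 and NR5A2). The part of length and chromosome in the counts was not tested.

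Annotated starts and strands were found in RefSeq for 7 of the 9 genes, with 10 promoter windows in all, and FOXA2 and NR0B2 have no entry in the table used. Peaks overlapped 3 of these windows, both starts of HLF with 2 libraries each and the start of FOXA1 with replicate 3 alone. Of all 35116 promoter windows, 1.94% had a peak in any library and 0.575% in at least 2. The 3 windows with a peak are printed here, with the windows of FOXA3 and CEBPA, where no library had a peak, as a contrast. Each is printed from 250 bases before the start to 30 from it, 5′ to 3′ on the strand of the gene. The sequence is that of RefSeq, GRCh38.p14. The windows themselves run somewhat farther past the start, and peak overlaps, motif shares and GC content were taken over the whole windows. Capitals mark matches on either strand to TATAAA, the TATA box, to CCAAT, to GGGCGG, the GC box, to TGTTTAC, a forkhead motif, and to AGGTCA, a nuclear receptor half-site.
HLF outer start, chr17:55264710-55264989, plus strand: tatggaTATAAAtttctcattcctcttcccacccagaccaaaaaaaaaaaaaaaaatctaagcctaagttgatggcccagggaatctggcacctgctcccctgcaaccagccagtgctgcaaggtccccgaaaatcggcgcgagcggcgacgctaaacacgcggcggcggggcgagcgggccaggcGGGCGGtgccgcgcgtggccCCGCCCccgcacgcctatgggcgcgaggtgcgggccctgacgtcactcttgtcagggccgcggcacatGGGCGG
HLF inner start, chr17:55265972-55266251, plus strand: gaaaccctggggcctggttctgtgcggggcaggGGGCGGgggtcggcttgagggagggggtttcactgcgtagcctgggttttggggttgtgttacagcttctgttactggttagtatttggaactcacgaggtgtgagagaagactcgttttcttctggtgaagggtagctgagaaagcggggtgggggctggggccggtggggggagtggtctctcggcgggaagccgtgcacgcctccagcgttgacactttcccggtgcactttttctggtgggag
FOXA1, chr14:37595220-37595499, minus strand: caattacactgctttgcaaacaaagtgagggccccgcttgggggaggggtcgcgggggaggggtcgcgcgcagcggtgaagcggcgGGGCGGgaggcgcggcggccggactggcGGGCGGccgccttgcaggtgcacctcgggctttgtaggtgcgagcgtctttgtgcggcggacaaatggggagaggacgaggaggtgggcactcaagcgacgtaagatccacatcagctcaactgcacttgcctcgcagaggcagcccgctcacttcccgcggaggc
FOXA3, chr19:45864076-45864355, plus strand: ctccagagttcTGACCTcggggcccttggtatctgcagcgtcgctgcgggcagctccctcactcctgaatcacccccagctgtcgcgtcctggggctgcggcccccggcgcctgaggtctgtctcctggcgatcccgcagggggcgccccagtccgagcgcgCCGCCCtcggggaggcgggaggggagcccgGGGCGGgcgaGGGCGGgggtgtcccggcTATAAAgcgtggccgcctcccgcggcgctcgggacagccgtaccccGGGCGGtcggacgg
CEBPA, chr19:33302505-33302784, minus strand: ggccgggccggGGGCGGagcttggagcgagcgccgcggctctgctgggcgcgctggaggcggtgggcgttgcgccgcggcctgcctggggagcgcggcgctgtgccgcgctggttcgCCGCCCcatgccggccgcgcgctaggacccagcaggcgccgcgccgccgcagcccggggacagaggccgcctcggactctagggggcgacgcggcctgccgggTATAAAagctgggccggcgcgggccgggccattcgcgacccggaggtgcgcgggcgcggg

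TATAAA began 30 bases before the start at FOXA3 and at CEBPA, both among the 7 windows without a peak, and at no other of the 10 windows. Over the whole table, TATAAA was present in 12.4% of windows with a peak in at least 2 libraries. The share was 8.65% of windows with a peak in any library and 11.6% of windows without a peak, so its direction changed with the number of libraries asked for. In the 3 windows with a peak it was found only at the outer start of HLF, 244 bases before it. GGGCGG was present in all 5 windows printed, and in 7 of the 10 windows of these genes, against 45.0% of all 35116 promoters of the table. TATAAA was present in 4 of 10 against 11.5%, AGGTCA in 3 of 10 against 13.8%, CCAAT in 1 of 10 against 34.6% and TGTTTAC in 1 of 10 against 3.42%. The window of NR5A2 at its inner start held TGTTTAC, and the single AGGTCA of NR1H4 lay 230 bases before its start. GC content was 64.3 and 61.3% at the outer and inner start of HLF and 69.3% at FOXA1. It was higher in the windows without a peak at FOXA3 (76.3%) and CEBPA (80.7%), and lower at the outer start of NR5A2 (36.7%) and at NR1H4 (41.7%). Over the whole table, windows with a peak in any library had a median GC content of 67.0% and windows without one 58.3%. GGGCGG was present in 78.2% of windows with a peak in any library, in 71.3% of those with at least 2 and in 44.3% without one. A match in these letters is a description and shows no factor bound there.

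HLF had 7, 11 and 9 peaks in replicates 1, 2 and 3, and 5 of 19987 protein-coding genes had more peaks over the 3 libraries. The gene (chr17:55264960-55325187) has 2 annotated starts 1262 bp apart, and each had peaks of 2 libraries. At the outer start a peak of replicate 1 had its summit 5 bp past the start, with a fold of 3.38 and a percentile of 4.72. The peak of replicate 3 there had its summit 89 bp past the start, with a fold of 5.80 and a percentile of 71.9. The outer start was therefore marked in 2 libraries of very different rank, and replicate 2 had no peak over it. At the inner start the summits lay 12 bp before the start in replicate 2 and 9 bp before it in replicate 3, with folds of 5.70 and 7.41 and percentiles of 62.2 and 91.5. Replicate 1 had no peak over the inner start, and its next peak began 756 bp beyond it.

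Beyond the inner start, peaks of HLF lay nearly end to end. A merged region of 4275 bp (chr17:55266441-55270715) held 9 peaks of the 3 libraries. In the first 8 kb from the outer start, peaks covered 3477, 3735 and 4582 bp in replicates 1, 2 and 3, or 43.5, 46.7 and 57.3% of the stretch. Each library had 2 peaks over 1000 bp wide there, the widest being 1807, 1133 and 1475 bp, where the median peak of the lists was 220 to 224 bp and 3.19, 2.15 and 2.12% of peaks were that wide. The strongest peak of this stretch in replicate 1 had a fold of 7.86 (percentile 93.4). The widest peaks of replicates 2 and 3, which overlapped it, had folds of 6.12 (percentile 71.3) and 6.45 (percentile 83.0). The 3 libraries thus marked the same stretch but divided it at different points, with summits of the region spread over 3926 bp.

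Farther in, HLF had a pair of narrow regions seen in every library. The region at chr17:55285870-55286349 had folds of 7.23, 6.62 and 7.50 in replicates 1, 2 and 3, at percentiles of 90.3, 79.9 and 91.9, and its summits lay between 21166 and 21263 bp from the outer start. The neighbouring region at chr17:55287032-55287382 had folds of 6.57, 7.86 and 5.66, at percentiles of 84.4, 90.3 and 68.7, with summits within 111 bp of each other. These 2 regions stood at percentiles of 68.7 or more in all 3 libraries. A region just before them (chr17:55283982-55284444) had peaks of replicates 1 and 2, with folds of 4.51 and 4.95. Outside the first 8 kb, peaks of a single library lay 10420 bp from the outer start in replicate 1 and 41527 bp from it in replicate 2. Beyond that point and over the 3′ end no library had a peak.

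**Figure D2:**
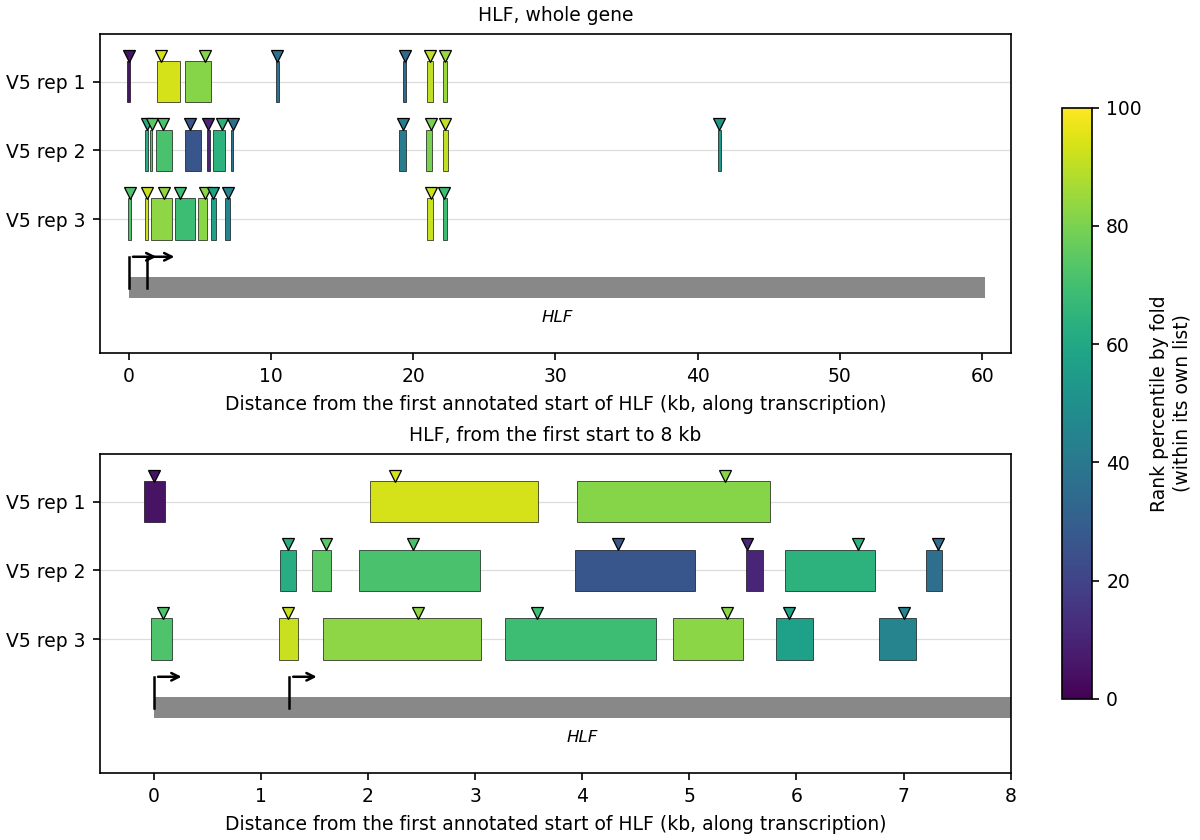
Peaks at HLF in the 3 V5 libraries (rows), as distance from the outer annotated start in kb along transcription, over the whole gene (top) and the first 8 kb (bottom). Boxes are peaks, triangles their summits, colours the rank percentile by fold within the list, grey bars the gene and bent arrows the annotated starts. Peaks covered 43.5 to 57.3% of the first 8 kb, and a pair of narrow regions about 21 kb in was seen in every library.

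HNF4A had peaks in 3 libraries, all inside the gene and none at a start. The gene (chr20:44355699-44434596) has an outer promoter, used in pancreas, and an inner promoter, used in adult liver, with annotated starts at 44355699 and 44401239. The region at chr20:44394469-44395035 had summits 6492, 6593 and 6481 bp before the inner start in replicates 1, 2 and 3. Its folds were 5.21, 5.52 and 5.29, at percentiles of 56.5, 58.4 and 57.8, and with an SD of 1.00 percentile points (n = 3) it varied least in rank among the 7 regions with 3 libraries. This stretch upstream of the inner promoter is where a liver enhancer of HNF4A has been described. It also lies inside the noncoding antisense gene HNF4A-AS1, 904 to 1060 bp past the 2 annotated starts of that RNA, and the peaks do not tell the 2 genes apart.

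A further region of HNF4A at chr20:44411324-44411614 lay 10153, 10161 and 10232 bp past the inner start in replicates 1, 2 and 3. Its fold was 5.37 in replicate 3 (percentile 60.3) against 3.26 in replicate 1 (percentile 4.0) and 3.14 in replicate 2 (percentile 1.72). The same place was thus near the bottom of the list in 2 libraries and above the middle in the other. Replicate 3 alone had a further peak, 3453 bp past the inner start, at a percentile of 67.3. Within 1000 bp of either start no library had a peak.

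**Figure D3:**
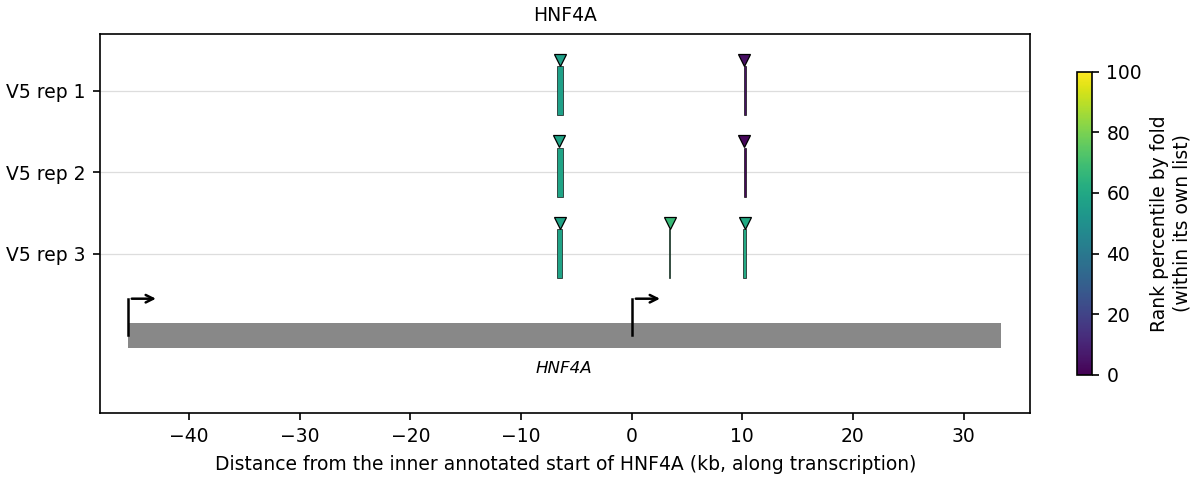
Peaks at HNF4A in the 3 V5 libraries (rows), as distance from the inner annotated start in kb along transcription. Boxes are peaks, triangles their summits, colours the rank percentile by fold within the list, the grey bar the gene and bent arrows its 2 starts. The region before the inner start had percentiles of 56.5 to 58.4 in every library, and no peak lay at a start.

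The 3 FOXA genes differed in where and how often peaks were found. FOXA3 (chr19:45864326-45873797) had a peak in every library, and each lay past the 3′ end of the gene. The region at chr19:45873863-45874086 had folds of 6.61, 5.83 and 5.28 in replicates 1, 2 and 3, at percentiles of 85.4, 65.4 and 57.6, with summits 221, 213 and 158 bp beyond the annotated 3′ end. No other annotated gene lay within 1000 bp of these peaks. A peak within 1000 bp of the 3′ end in at least 2 libraries was rare, at 0.209% of 15813 protein-coding genes with a known strand, against 1.38% for a peak within 1000 bp of a start. The start of FOXA3 had no peak within 1000 bp in any library.

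FOXA1 (chr14:37589552-37595249) had 2 weak peaks, each of a single library and at opposite ends of the gene. In replicate 3 the peak lay before the start, with its summit 204 bp upstream, a fold of 4.25 and a percentile of 21.4. It also covered the start of TTC6, a divergent gene whose annotated start lay 176 bp beyond the summit, so the peak cannot be told apart between the 2 genes. In replicate 2 the peak lay inside the gene, 617 bp before its 3′ end, with a fold of 3.65 and a percentile of 5.12. Counted as a place shared between libraries, FOXA1 had none. A region 42.1 kb from the lower end of FOXA1, in the neighbouring gene MIPOL1 (chr14:37546860-37547487), had peaks of all 3 libraries. These were weak too, at percentiles of 5.97, 36.3 and 11.4 in replicates 1, 2 and 3. How many other genes have a region at such a distance was not counted. FOXA2 had no peak within 50 kb, and its nearest peaks lay 55.7 kb away in replicate 2, 765164 bp away in replicate 3 and 2793024 bp away in replicate 1.

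**Figure D4:**
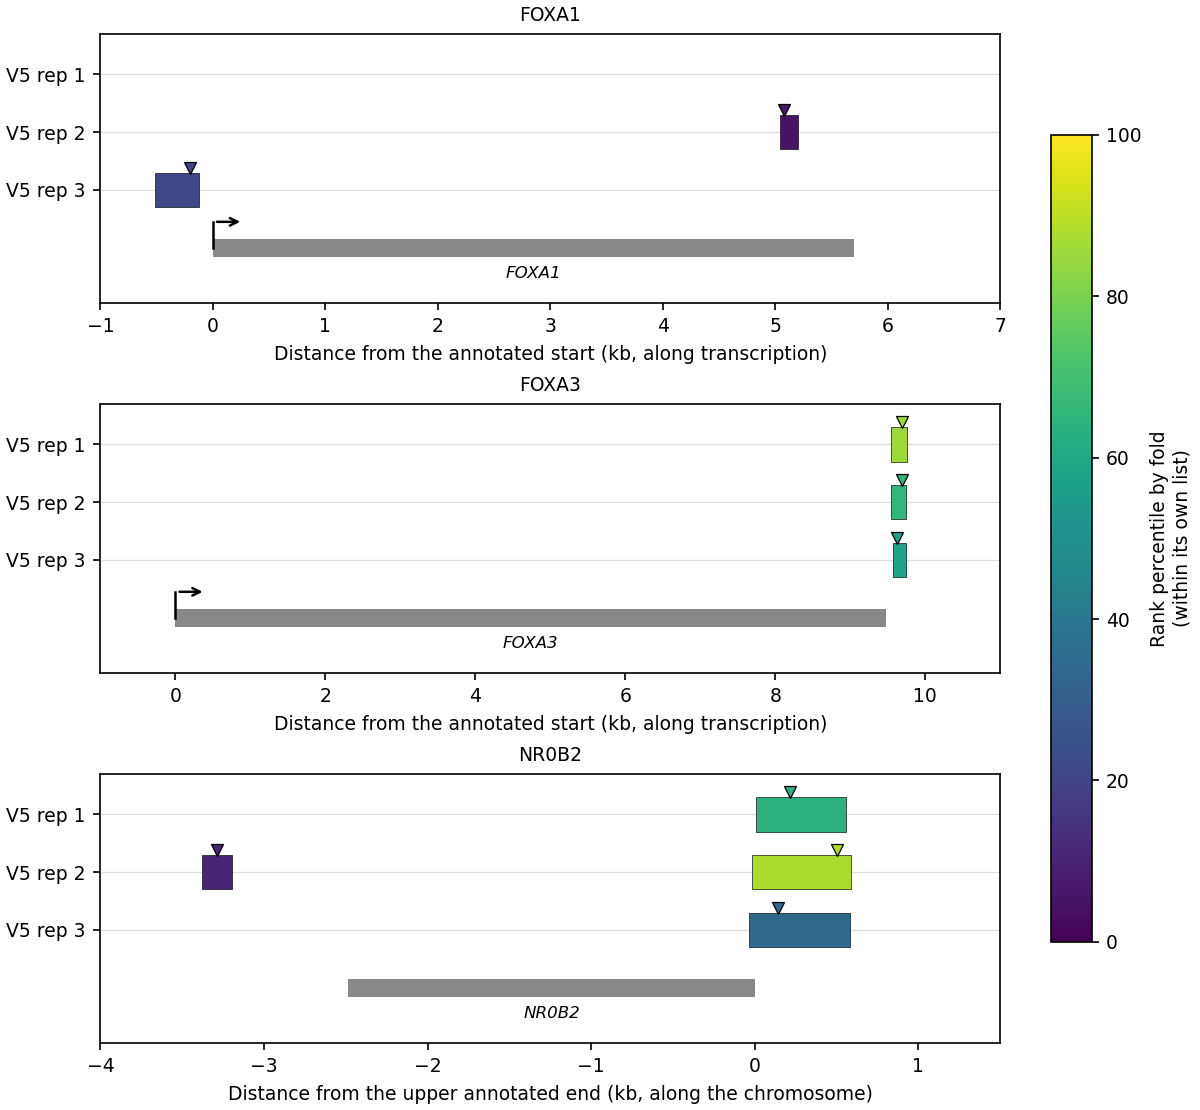
Peaks at FOXA1 and FOXA3, as distance from the annotated start in kb along transcription, and at NR0B2, as distance from its upper annotated end in kb along the chromosome, in the 3 V5 libraries (rows). Boxes are peaks, triangles their summits, colours the rank percentile by fold within the list, grey bars the genes and bent arrows the annotated starts. FOXA3 and NR0B2 had peaks of 3 libraries at the same place, and the 2 peaks of FOXA1 lay at opposite ends.

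CEBPA (chr19:33299934-33302534) had no peak over the gene or within 1000 bp in any library. A region 23.6 kb below the gene (chr19:33276038-33276350) had peaks of replicates 2 and 3. How many other genes have such a region at this distance was not counted. The folds there were 8.30 and 7.75, at percentiles of 93.1 and 93.5. A weaker region 25.3 kb below the gene (chr19:33274281-33274602) was found in the same libraries, and replicate 2 had another peak 6187 bp below the gene. In replicate 1 the nearest peak lay 90.1 kb away. No annotated gene lay within 1000 bp of the regions below CEBPA, and nothing in the lists ties them to it.

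Of the 3 genes of the bile acid circuit, NR0B2 was marked in every library. The gene (chr1:26911489-26913975) lies inside the longer gene NUDC, which encodes a regulator of nuclear migration. The region at chr1:26913940-26914561 overlapped or lay within 5 bp of the upper end of NR0B2. Its folds were 5.46, 7.38 and 4.57 in replicates 1, 2 and 3, at percentiles of 63.8, 87.7 and 33.8, so the rank differed widely between libraries although the place was the same. The listed start of NUDC in the promoter table lay 7263 to 7624 bp beyond these summits. As the peaks lie inside NUDC, they do not tell NR0B2 and NUDC apart. Replicate 2 had a second, weak peak 799 bp below the lower end (fold 3.94, percentile 10.5), and replicate 3 had a further peak 1199 bp above the gene, outside the window.

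NR1H4 and NR5A2 were nearly free of peaks. NR1H4 (chr12:100473866-100564414) had a peak in replicate 2 only, with a fold of 4.56 and a percentile of 28.3. Its summit lay 882 bp inside the lower end of the span, the 5′ end of this plus-strand gene, where the promoter table lists no start. The start listed for NR1H4 in the promoter table lay 28612 bp beyond that summit and had no peak within 1000 bp. In replicate 3 the nearest peak lay 36.2 kb away, and in replicate 1 it lay 1035002 bp away. NR5A2 (chr1:200027710-200177415) had no peak within 50 kb. Its nearest peaks lay 993229, 5107499 and 719311 bp away in replicates 1, 2 and 3.

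At the ends and starts the picture was narrower than over whole genes. A peak within 1000 bp of an annotated end was present in at least 2 libraries at 4 of 9 genes, FOXA1, FOXA3, HLF and NR0B2, against 1.37% of all protein-coding genes. Of the 7 genes with a known start, 1, HLF, had a peak within 1000 bp of a start in at least 2 libraries, against 1.38% of 15813 protein-coding genes. Without replicate 3 the count at an end was 2 of 9, FOXA3 and NR0B2. FOXA1 was the other gene with a peak at a listed start in any library, so that 2 of 7 had one, against 4.10%. The peak of NR1H4 near the 5′ end of its span is not among these, since no start is listed there. Of 40 peaks at genes with a listed start, 5 had their summit within 250 bp of one, 4 of them at HLF and 1 at FOXA1. Of the 40 peaks, 27 were at HLF, and the same share over all peaks was not counted.

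The genes most like each of the 4 with peaks in 3 libraries were found by the distance between the percentiles of the strongest peak over 3 libraries, among 379 other genes. For HLF the nearest was AKIRIN2, at a distance of 1.09 percentile points. For FOXA3 they were RRP7A (5.01) and SIAH2 (7.54), and for HNF4A they were SLC38A2 (12.3) and ENO1 (14.2), a glycolysis gene. For NR0B2 the nearest was CMIP (9.999). HLF and AKIRIN2 lay at 93.4 and 94.4 in replicate 1, 90.3 and 90.1 in replicate 2, and 91.9 and 92.4 in replicate 3. With 3 values per gene, likeness of rank says little about the genes.

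Of 55 other liver transcription factor genes, 7 had a peak in at least 2 libraries (12.7%), 17 in any library and 38 in none, against 3.76 and 8.67% of all protein-coding genes for 2 libraries and for any. SREBF2, the sterol regulator, had folds of 14.8, 13.9 and 12.2 in replicates 1, 2 and 3, at percentiles of 99.6, 99.4 and 99.5. XBP1, a factor of the secretory pathway, had 3, 4 and 4 peaks and strongest percentiles of 40.7, 93.9 and 92.7. NR1D1, a repressor of the circadian clock, and TBX3, a T-box factor of liver development, also had peaks in 3 libraries. At TBX3 the strongest percentile was 28.8, 71.9 and 29.7, and at NR1D1 it was 83.1, 18.0 and 39.0. NFIA, PROX1 and TCF7L2 had peaks in replicates 1 and 2 that did not overlap, and without replicate 1 or 2 the count was 4 of 55.

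Close relatives and partners of the 9 genes had few peaks. Of the zipper family of HLF, DBP had a peak in replicate 3 alone (percentile 44.5), and TEF had none. NFIL3, a repressor at the same sites, had a peak in replicate 3 alone (percentile 26.7). CEBPB, a relative of CEBPA, had a peak in replicate 3 alone (percentile 33.0). HNF4G, ONECUT1, CEBPD, CEBPG, RXRA and PPARA had no peak.

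Bile acid genes, on which NR1H4, NR0B2, NR5A2 and HNF4A act, were marked at 3 of 24 in at least 2 libraries (12.5%), against 3.76% of all protein-coding genes. All 3 had peaks in 3 libraries, against 1.90% of all protein-coding genes. SLC51B, a subunit of the bile acid exporter at the sinusoidal side, had a peak before its start in each, with summits 125, 257 and 396 bp upstream in replicates 1, 2 and 3 and folds of 4.73, 5.90 and 5.76. ABCC3, another exporter, had its strongest peak far inside the gene, 7269 to 7292 bp before the upper end, with folds of 8.44, 7.86 and 11.5. KLB, a co-receptor of the hormone FGF19, had strongest percentiles of 74.2, 73.0 and 60.7. The synthesis genes CYP7A1, CYP8B1 and CYP27A1 and the canalicular exporter gene ABCB11 had no peak.

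Transcription factor genes of other lineages had peaks in at least 2 libraries at 1 of 35 genes, RUNX1, a blood factor, or 2.86% against 3.76% of all protein-coding genes, a share near the background, and no other gene of that list had a peak in any library. RUNX1 had folds of 4.88, 5.71 and 5.26 in replicates 1, 2 and 3, deep inside its span of 261502 bp. The hepatocyte factor genes thus stood at 5 of 9, against 7 of 55 other liver factors, 3 of 24 bile acid genes and 1 of 35 factors of other lineages. The liver marker genes stood at 4 of 7, much the same share as the 9 factor genes. Median gene length was 9472, 36387, 33084 and 12244 bp in these 4 lists.

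**Figure D5:**
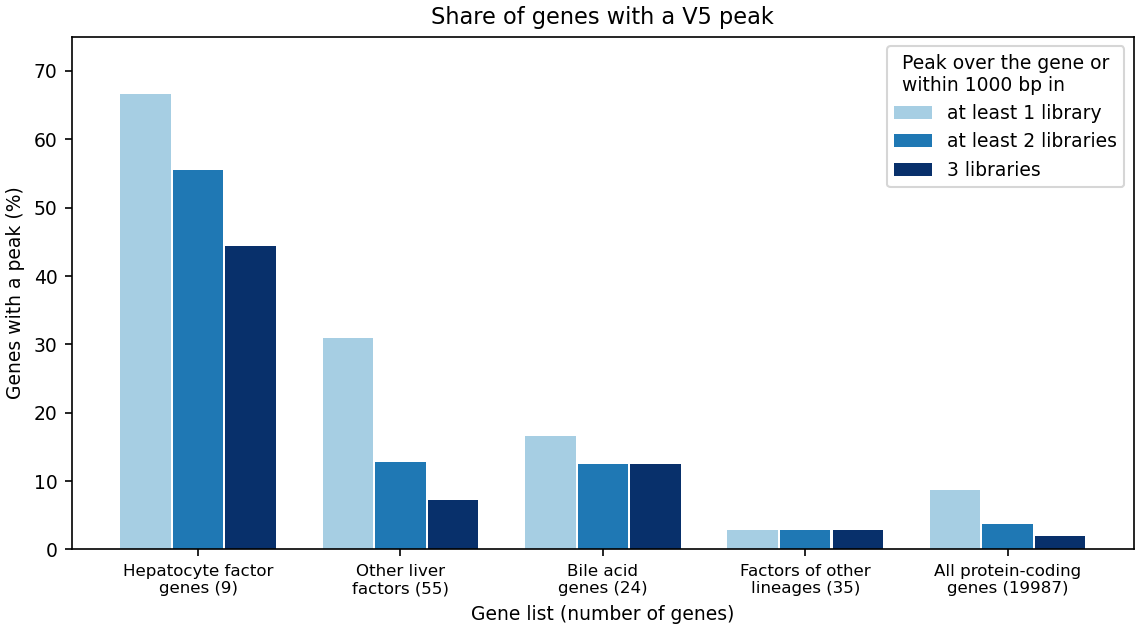
Share of genes (%) with a V5 peak over the gene or within 1000 bp in at least 1, at least 2 or 3 libraries, for the 9 hepatocyte transcription factor genes, 3 further lists and all 19987 protein-coding genes. The 9 genes stood at 66.7, 55.6 and 44.4%, against 8.67, 3.76 and 1.90% of all protein-coding genes.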

How the data were processed

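ChIP-seq peak lists of 3 V5 libraries of the HepG2 clone were used, grouped by the treatment in the labels. Per the submitters' processing notes the build was GRCh38. Which program aligned the reads, which called the peaks, at what threshold and against which background was not given in the sources used here. The deposited narrowPeak lists give for each peak a fold over background, which is a linear ratio, a −log10 p and a −log10 q, all the authors' own values. The deposited score, which is 10 times the −log10 q truncated, was left aside. Summit positions were read from the deposited offsets. Fold was used to describe and rank peaks within a list and, in 1 alternative, to filter them. The lists hold no read counts, so depth and its precision are unknown.

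A gene was called when a peak overlapped its RefSeq span, extended by 1000 bp, by at least 1 bp. Overlapping peaks of the lists were merged into regions. Starts, strands and promoter sequences came from RefSeq, GRCh38.p14. The interval code was tested on simulated peaks. The 9 genes, the further lists (liver factors, factors of other lineages, bile acid genes), the motifs and the alternatives were chosen with earlier results of these data known. Named genes were the 9, the genes of each further list with peaks in at least 2 libraries, the 2 genes nearest in rank to each gene with peaks in 3 libraries, and neighbours under a peak. Some genes that this rule or the lists name are not reported here. Other genes of the lists, CEBPA's surroundings and the MIPOL1 region were named after their values were seen. No test was made, since there is a single group of libraries and gene-list tests would rest on genes already known to be marked. Alternatives covered stricter peaks, other windows, the summit in place of the peak, the number of libraries, each replicate left out and, chosen after seeing the data, overlapping peaks only. The tools were pandas 2.3.3, numpy 2.4.6 and matplotlib 3.10.9 under Python 3.11.15.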

Additional observations from a re-analysis of the deposited data

How the results depend on the processing

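The count of the 9 genes with a peak in at least 2 libraries stayed between 4 and 6 under all 13 alternatives. The share of all protein-coding genes ran from 1.90% with 3 libraries to 8.67% with any library. FOXA3, HLF, HNF4A and NR0B2 were called in each, and FOXA1 was lost with stricter peaks, with 3 libraries, with overlapping peaks only and without replicate 2 or 3. The 4 genes with an end peak became 2, FOXA3 and NR0B2, with −log10 q of at least 3 or 5, with a fold of at least 5 and with 3 libraries. The shares of all protein-coding genes there were 0.976, 0.655, 0.610 and 0.625%. The count at an end ranged from 2 to 3 with a replicate left out. The 2 were without replicate 3, where the share of all protein-coding genes was 0.786%. The 7 of 55 other liver factors became 3 with −log10 q of at least 3, against 2.90% of all protein-coding genes. They became 2 with −log10 q of at least 5 (against 1.91%) or a fold of at least 5 (against 2.04%). With any library they were 17 (against 8.67%), with 3 libraries 4 (against 1.90%) and with overlapping peaks only 4 (against 3.27%). With a replicate left out they ranged from 4 to 7. The 4 were without replicate 1 (against 2.81%) or replicate 2 (against 2.26%). The 3 bile acid genes stayed at 3 or 4 and RUNX1 stayed the single gene of other lineages. FOXA1 kept 1 library with −log10 q of at least 3 and 0 with −log10 q or a fold of at least 5, NR1H4 kept 0 under each of these, and CEBPA gained 1 library with a 10000 bp window. The causes were not tested. No paired analysis was possible because the data used here held no peak lists of the control libraries. Weak peaks rest on an unknown depth, and a gene without a peak may lie under the threshold of the lists.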
